A study of Mus musculus with 10 samples.

Results

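The 7 genes of antigen presentation described here were followed in single cells of the mouse medial prefrontal cortex. They are H2-D1 and H2-K1, the heavy chains of the classical class I molecules. B2m, the light chain that both heavy chains need, completes that group. The others are Cd74, the invariant chain, and H2-Aa, H2-Ab1 and H2-Eb1, chains of the class II molecules. They were chosen by gene symbol, which makes 7 members of the 30406 genes listed for all 10 libraries, and all 7 had counts.

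Class I molecules are loaded with peptides cut by the proteasome, carried into the endoplasmic reticulum by the Tap1 and Tap2 transporter, and shown to CD8 T cells. Most nucleated cells can make them, and in the healthy brain vascular cells and microglia are known as their main sources. Class II molecules are loaded in endosomes, where Cd74 first blocks the groove and is then trimmed by proteases such as cathepsin S (Ctss), and they are shown to CD4 T cells. In the brain class II is known from macrophages, dendritic cells and B cells at its borders, and from microglia under stimulation.

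The samples were 5 libraries from rank 1 mice, the dominants of a hierarchy measured with the tube test, and 5 from rank 4 mice, the subordinates. All mice were male, of the strain C57BL/6N and over 2 months old, and no allele or drug is given for either group. Each library pooled tissue of 2 to 3 mice taken 1 day after the last tube test and digested with papain at 37 °C, so the library was the replicate and no value belongs to a single mouse. The assay, 10x Genomics droplet sequencing, counts unique molecular identifiers (UMIs), 1 for each RNA molecule caught.

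The deposited matrices held 64937 barcodes, of which 46194 were kept (17447 from rank 1 and 28747 from rank 4). A library held 4442750 to 29278466 UMIs, and the median kept cell of a library held 1328 to 2662.5 UMIs. Cells were clustered without the 7 genes and clusters were named by markers, so that "microglia" and the other class names mean cells like that class. The markers that follow were themselves used for naming, so they describe the classes and are no independent check of the names. Cldn5, a tight junction gene of endothelial cells, stood at 5430 UMIs per 1000000 UMIs (CPM) in the class of that name. In excitatory neurons it stood at 25.2 CPM. Cx3cr1, Csf1r and P2ry12, receptor genes of microglia, were among the leading genes of the microglial cluster. Replicates 1 to 3 of both ranks carried a matrix header of another software version, and another gene list, than replicates 4 and 5. Over all pairs of libraries 579 barcodes were shared, at most 1.70% of a library, and 57 of them marked kept cells of the same class in both libraries.

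H2-D1, H2-K1 and the class II chains lie in the major histocompatibility complex on chromosome 17. On the GRCm38 build, in the GENCODE M21 annotation, H2-K1 spans chr17:33996017-34000347 on the minus strand and H2-D1 spans chr17:35262730-35267499 on the plus strand. The start that RefSeq gives for H2-D1 lies inside this span, so the element printed for it is upstream of the RefSeq start and inside the GENCODE gene. H2-Ab1 spans chr17:34257689-34269419 (plus), H2-Aa chr17:34282744-34287823 (minus) and H2-Eb1 chr17:34305867-34316674 (plus). B2m spans chr2:122147686-122153083 (plus). B2m overlaps Patl2 and H2-Eb1 overlaps Gm20513 on the opposite strand, and the strand setting of the counting is not given in the sources used here. Of the 451 stretches of 50 bases in the last 500 transcript bases of B2m, Cd74, H2-Aa, H2-Ab1 and H2-Eb1, 0 were shared with another gene. In H2-K1 2 of 451 were shared, with H2-D1, and in H2-D1 43 of 451 were shared, with 80 genes in all, so reads of these stretches could have been split or lost in the authors' counting.

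Because the class I genes were high in the same classes and libraries, DNA just upstream of the RefSeq starts is shown. RefSeq promoter sequences of the GRCm38.p6 build were searched on both strands, in the 200 bases before the start (199 for B2m), for enhancer A (the palindrome that opens both elements printed below in capitals, bound by Rel proteins), the interferon regulatory factor core (AANNGAAA) and the Y box (CTGATTGG, bound by NF-Y). The first is rare: 6 of 27025 promoters held it, or 0.0222%. H2-D1 and H2-K1 were among the 6, as was H2-Q6, another class I heavy chain gene. The core was in 17.2% of all promoters and the Y box in 3.77%. In both heavy chain genes enhancer A is followed by the core on the reverse strand, and the element of 29 bases from one to the other is printed here with both motifs in capitals.
H2-D1 element, chr17:35262923-35262951, plus strand: GGGGATTCCCCatctcctcagTTTCACTT
H2-K1 element, chr17:34000430-34000458, minus strand: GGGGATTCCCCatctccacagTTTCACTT
Of the 29 bases 28 are the same, and the substitution is T18A, counted from 1 at the 5′ end with the base of H2-D1 first. The search covered 5 of the 7 members, and Cd74 and H2-Ab1 were not analysed here. The windows of the 4 members below show how these motifs are spread, with every match to 1 of the 3 motifs in capitals. H2-K1 carries enhancer A and the core, B2m the core alone, and H2-Aa and H2-Eb1 the Y box alone. In H2-D1 the Y box is present too, on the reverse strand.
H2-K1 upstream window, chr17:34000348-34000547, minus strand: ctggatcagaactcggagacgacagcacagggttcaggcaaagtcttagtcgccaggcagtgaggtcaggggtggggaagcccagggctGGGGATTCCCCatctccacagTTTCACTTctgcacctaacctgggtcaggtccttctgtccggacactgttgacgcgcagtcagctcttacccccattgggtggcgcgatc
B2m upstream window, chr2:122147487-122147685, plus strand: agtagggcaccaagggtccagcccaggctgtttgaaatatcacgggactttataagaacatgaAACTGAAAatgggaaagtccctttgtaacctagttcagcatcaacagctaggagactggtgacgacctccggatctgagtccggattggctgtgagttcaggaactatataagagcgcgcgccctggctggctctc
H2-Aa upstream window, chr17:34287824-34288023, minus strand: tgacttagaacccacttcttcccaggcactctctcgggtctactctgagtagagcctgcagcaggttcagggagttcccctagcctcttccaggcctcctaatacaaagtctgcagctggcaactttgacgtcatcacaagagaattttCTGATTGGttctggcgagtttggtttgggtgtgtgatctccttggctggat
H2-Eb1 upstream window, chr17:34305667-34305866, plus strand: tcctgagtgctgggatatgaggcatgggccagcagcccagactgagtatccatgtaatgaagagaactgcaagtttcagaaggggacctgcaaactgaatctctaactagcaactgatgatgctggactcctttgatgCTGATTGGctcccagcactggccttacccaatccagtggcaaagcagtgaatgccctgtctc
A match is a match of letters only, and binding was not measured.

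Among the 10 classes with enough cells in several libraries, endothelial cells and microglia held the highest levels of each class I gene and excitatory neurons the lowest. The few cells of the immune cluster are left out of this order and described further on. The level is the CPM of a gene over all UMIs of a class in a library, averaged over libraries. In bulk sums of a class, fewer expressing cells and less RNA per cell cannot be told apart. Neighbours in the order of classes were compared within libraries on log2(CPM + 10) with a two-sided exact sign-flip permutation test, with Benjamini-Hochberg adjustment over the 63 neighbour pairs of all members. Of these pairs 11 passed an adjusted p of 0.05. The test takes libraries as independent, though those of equal replicate number deviated together. With the 5 replicate numbers as units no p could fall below 0.0625, so none of the 11 could pass. When 1 library was left out, 6 of the 11 passed whenever they were neighbours, and 5 passed in 1 case each, with adjusted p up to 0.0895; these 5 are marked below as resting on all libraries.

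Of these classes H2-D1 was highest in endothelial cells, at 857 CPM ± 509 (SD, n = 10). In the rank 1 libraries, replicates 1 to 5, it stood at 631, 1311, 1828, 570 and 429 CPM in these cells, and in the rank 4 libraries at 488, 1131, 1362, 388 and 436 CPM. The groups overlapped, and the high libraries were replicates 2 and 3 of both ranks. Microglia followed at 596 CPM ± 394 (n = 10), lower than endothelial cells in 10 of 10 libraries by 0.61 on the log2 scale (exact permutation test, adjusted p = 0.0205). Pericytes, the contractile cells on capillaries, stood at 365 CPM ± 205 (n = 10), below microglia in 9 of 10 libraries (exact permutation test, adjusted p = 0.0447), a call that rested on all libraries. The next places, smooth muscle cells at 221 CPM and oligodendrocyte precursors at 207 CPM, could not be told apart (exact permutation test, adjusted p = 1.00). Committed oligodendrocyte precursors, at 57.5 CPM in 7 libraries, lay below the precursors and above inhibitory neurons in 7 of 7, and neither step passed (exact permutation test, adjusted p = 0.0757 for both). Inhibitory neurons at 36.5 CPM, astrocytes at 35 CPM and oligodendrocytes at 28.2 CPM did not differ beyond their spread either, and excitatory neurons were lowest at 18.8 CPM ± 9.42 (n = 10). They lay below oligodendrocytes in 9 of 10 libraries (exact permutation test, adjusted p = 0.0369), which rested on all libraries.

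H2-K1 was not ordered like H2-D1. Microglia at 486 CPM ± 278 and endothelial cells at 396 CPM ± 129 (n = 10 each) did not differ beyond their spread, with microglia higher in 6 of 10 libraries (exact permutation test, adjusted p = 1.00). Endothelial cells exceeded pericytes, at 112 CPM ± 32.6, in 10 of 10 libraries by 1.71 on the log2 scale (exact permutation test, adjusted p = 0.0205). Astrocytes held 83.0 CPM ± 15.8 (n = 10), with a lowest, median and highest library at 58.2, 81.4 and 112 CPM. From pericytes down to oligodendrocyte precursors, at 63.5 CPM, no neighbours differed beyond their spread. Oligodendrocyte precursors exceeded oligodendrocytes, at 26.1 CPM, in 9 of 10 libraries (exact permutation test, adjusted p = 0.0352), which rested on all libraries. Oligodendrocytes exceeded inhibitory neurons in 10 of 10 libraries (exact permutation test, adjusted p = 0.0205). Inhibitory and excitatory neurons were lowest, at 7.43 and 7.01 CPM.

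B2m, whose protein pairs with every class I heavy chain, was highest among these classes in microglia, at 1708 CPM ± 1206 (n = 10). It exceeded endothelial cells, at 878 CPM ± 592, in 10 of 10 libraries by 0.87 on the log2 scale (exact permutation test, adjusted p = 0.0205). Endothelial cells in turn exceeded pericytes, at 278 CPM, in 10 of 10 libraries by 1.60 (exact permutation test, adjusted p = 0.0205). Pericytes exceeded oligodendrocyte precursors, at 178 CPM, in 9 of 10 libraries (exact permutation test, adjusted p = 0.0369). Astrocytes at 95.4 CPM exceeded oligodendrocytes at 62.0 CPM in 9 of 10 libraries (exact permutation test, adjusted p = 0.0369), and these calls rested on all libraries too. Inhibitory and excitatory neurons, at 56.1 and 49.2 CPM, did not differ beyond their spread.

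**Figure D1:**
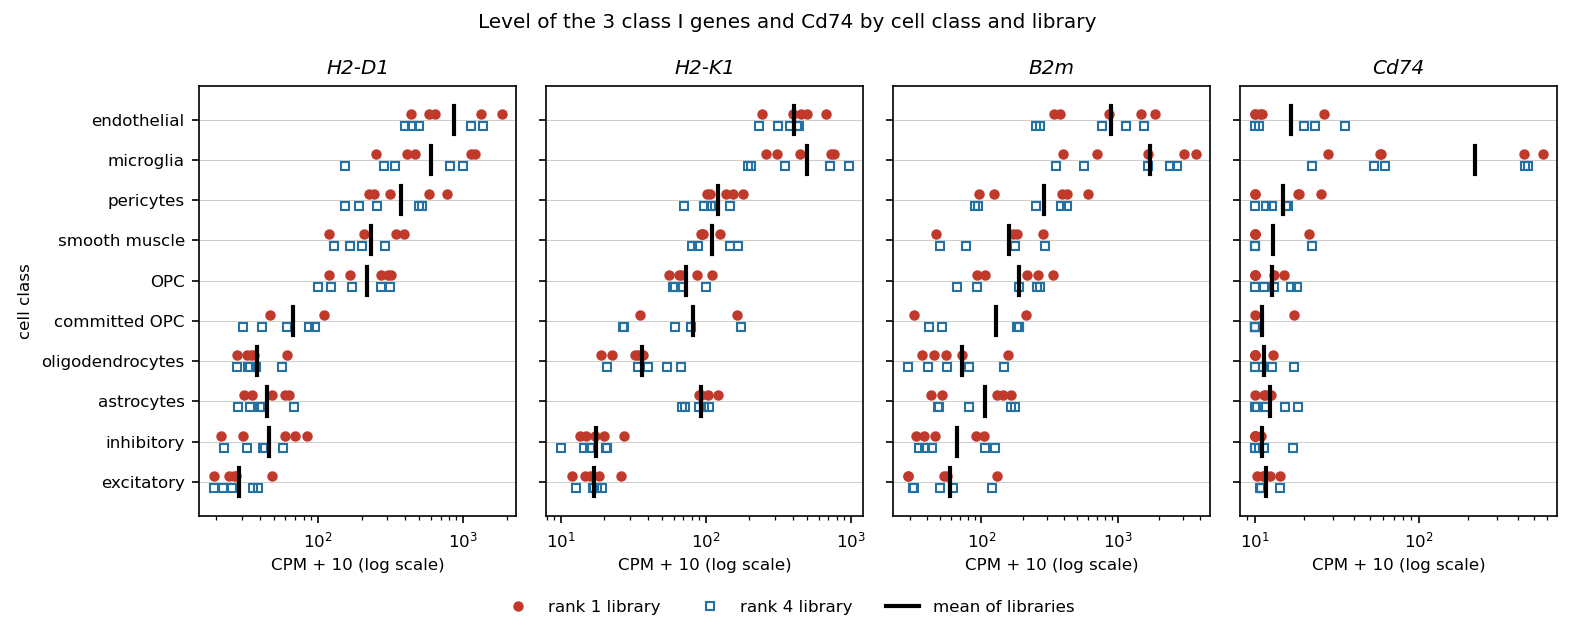
Level of H2-D1, H2-K1, B2m and Cd74 (CPM + 10, log scale) by cell class; each point is 1 library (filled circles rank 1, open squares rank 4) and the black line is the mean over libraries with at least 20 cells of the class. Of the classes drawn, which leave out the immune cluster, endothelial cells and microglia stand highest for the 3 class I genes, and microglia for Cd74, over a wide range from 12.2 to 557 CPM.

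Counted by cells, 50.3% of 4406 endothelial cells had a UMI of H2-D1 (median 1250 UMIs per cell), against 41.6% of 3609 microglia (1275), 26.8% of 3274 oligodendrocyte precursors (1624) and 5.45% of 18157 excitatory neurons (2246). Cells with at least 1000 UMIs were also thinned to that number, and shallower cells left out. The shares were then 43.1% of 2912 endothelial cells, 35.5% of 2516 microglia and 1.87% of 15394 excitatory neurons, which are deeper cells than those of the first count. For B2m the share was 64.6% of microglia, or 68.3% of the 2516 deep enough to be thinned. Free RNA in the droplets sets a floor for such shares. As a guide to it, the level in a class was divided by the endothelial level of the same library, and the ratios were averaged over the 10 libraries. In excitatory neurons Cldn5 averaged 0.471% by this measure, while H2-D1 averaged 2.92%, H2-K1 2.19% and B2m 6.94%. In astrocytes H2-K1 averaged 22.7% ± 7.06 (SD, n = 10), against 0.684% for Cldn5 and 4.60% for H2-D1.

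Within endothelial cells, 592 cells formed sub-clusters with arterial markers (such as Bmx and Gkn3), and all 3 class I genes were higher there than in the other 3369 cells, with sub-clusters led by genes of another class left out. H2-D1 stood at 1330 CPM ± 704 against 732 CPM ± 454, a log2 difference of 0.92 ± 0.32 (SD, n = 10). H2-K1 stood at 570 against 351 CPM (0.70 ± 0.24) and B2m at 1389 against 733 CPM (0.96 ± 0.16). Each was higher in the arterial cells in 10 of 10 libraries. Of 6862 genes at 20 CPM or more, 3.26% were higher in every library, and the median gene differed by -0.05. The median arterial cell held 1637.5 UMIs against 1141, and Cldn5 stood at 4971 CPM in the arterial and 5744 CPM in the other cells. The sub-clusters come from the same cells, so these values carry no test.

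Microglia held a sub-cluster of 756 cells marked by Ccl3 and Ccl4, chemokine genes switched on in activated microglia and during tissue dissociation, beside 2670 other cells. In the 9 libraries with at least 20 cells of both, Cd74 stood at 367 CPM ± 328 in the first and 160 CPM ± 190 in the second, a log2 difference of 1.47 ± 0.80. H2-D1 stood at 883 against 557 CPM (0.73 ± 0.32) and B2m at 2128 against 1782 CPM (0.37 ± 0.42). These 3 genes were higher in the Ccl3 and Ccl4 cells in 9 of 9 libraries, against 1.32% of 6306 genes, and H2-K1 (601 against 499 CPM) in 7 of 9. Among excitatory neurons H2-D1 stood at 33.0 CPM ± 14.7 in layer 6 corticothalamic cells and 14.2 CPM ± 10.9 in layer 5 pyramidal tract cells (n = 8). Cldn5 stood there at 19.1 and 20.7 CPM, and the haemoglobin gene Hbb-bs at 332 ± 358 and 230 ± 219 CPM. H2-K1 stood at 7.72 and 6.39 CPM and B2m at 35.4 and 39.9 CPM in these cells, each within its spread. In layer 2/3 intratelencephalic cells H2-D1 stood at 14.2 CPM ± 10.4 (n = 10), and in layer 5/6 near-projecting cells at 25.7 CPM ± 15.6 (n = 8).

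Since H2-D1 and H2-K1 are read by the same method in the same cells, their ratio shows whether classes favour 1 gene over the other. Astrocytes had the lowest ratio, a log2 difference of H2-D1 from H2-K1 of -1.09 ± 0.55 (SD, n = 10). The levels are not scaled by length, so only differences of this ratio between classes are read. In endothelial cells the ratio was 0.95 ± 0.61, in pericytes 1.47 ± 0.54, in oligodendrocyte precursors 1.47 ± 0.83 and in microglia 0.20 ± 0.38. Within a library, the ratio in astrocytes minus that in endothelial cells was -2.04 ± 0.27, below 0 in 10 of 10 libraries (exact sign-flip permutation test, adjusted p = 0.00879 over 9 classes). For microglia the difference was -0.75 ± 0.40, below 0 in 10 of 10 libraries (exact permutation test, adjusted p = 0.00879). For oligodendrocytes it was -0.81 ± 0.84, below 0 in 9 of 10 libraries (exact permutation test, adjusted p = 0.0246). For oligodendrocyte precursors and pericytes it was 0.53 each, above 0 in 9 of 10 libraries (exact permutation test, adjusted p = 0.00879 for both). The remaining classes did not pass. These tests too take libraries of equal replicate number as independent. The ratio also differed between the replicates of the 2 software versions, where version and replicate cannot be told apart: in endothelial cells it averaged 1.40 in replicates 1 to 3 and 0.27 in replicates 4 and 5, and in astrocytes -0.70 and -1.68. Astrocytes stood lowest in both sets of replicates, apart from committed oligodendrocyte precursors, which averaged -1.75 in replicates 4 and 5 on 53 H2-K1 UMIs in all.

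**Figure D2:**
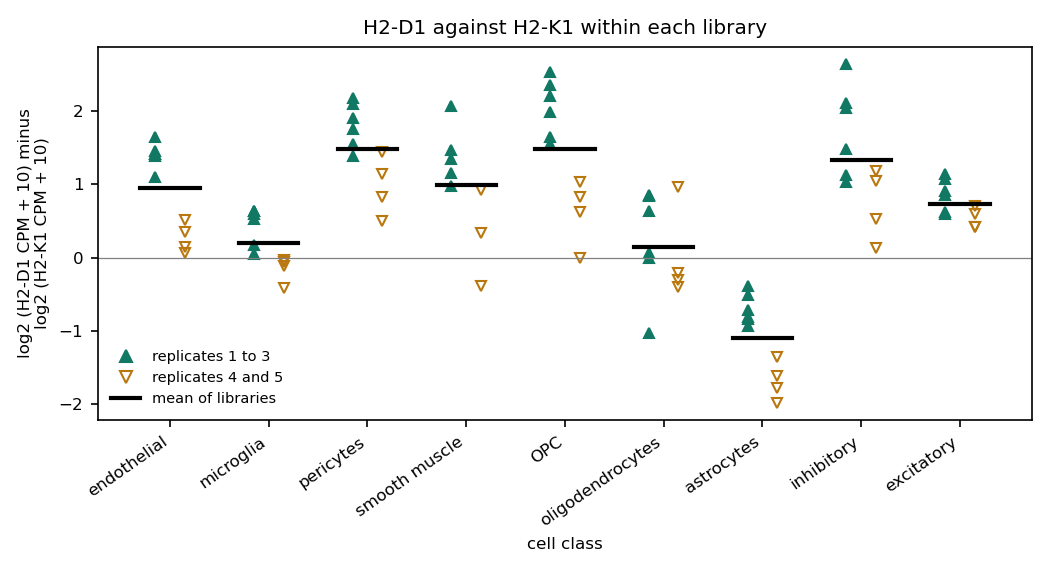
Log2(CPM + 10) of H2-D1 minus that of H2-K1 in each library, by cell class; filled triangles are replicates 1 to 3, open triangles replicates 4 and 5 of both ranks, and the black line is the mean over libraries. Astrocytes lie below 0 in every library, and in endothelial cells, microglia, oligodendrocyte precursors and astrocytes the points of replicates 4 and 5 lie below all those of replicates 1 to 3.

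Class II RNA was held by very few cells. Of 574 UMIs of H2-Aa, 94.9% came from an immune cluster of 194 cells, which are 0.420% of the kept cells. The same cluster held 83.3% of 750 H2-Ab1 UMIs, 82.4% of 564 H2-Eb1 UMIs and 69.0% of 3110 Cd74 UMIs. Microglia, with 7.81% of the cells, held 23% of the Cd74 UMIs but 1.05% of those of H2-Aa, 5.47% of those of H2-Ab1 and 2.30% of those of H2-Eb1. For class I the picture was another one: endothelial cells held 42.7% of 12792 H2-D1 UMIs, 33.9% of 7869 H2-K1 UMIs and 26.3% of 22293 B2m UMIs, and microglia held 20.8%, 27.4% and 40.4% of them. No class other than those of the immune cluster reached 10 CPM of a class II chain. H2-Ab1 averaged 7.99 CPM in microglia and 5.39 CPM in pericytes, H2-Eb1 4.18 CPM in smooth muscle cells and 3.19 CPM in microglia, and H2-Aa 2.89 CPM in microglia. H2-Aa was at 0 in pericytes, which allows a level of up to 1.34 CPM from counting error alone.

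**Figure D3:**
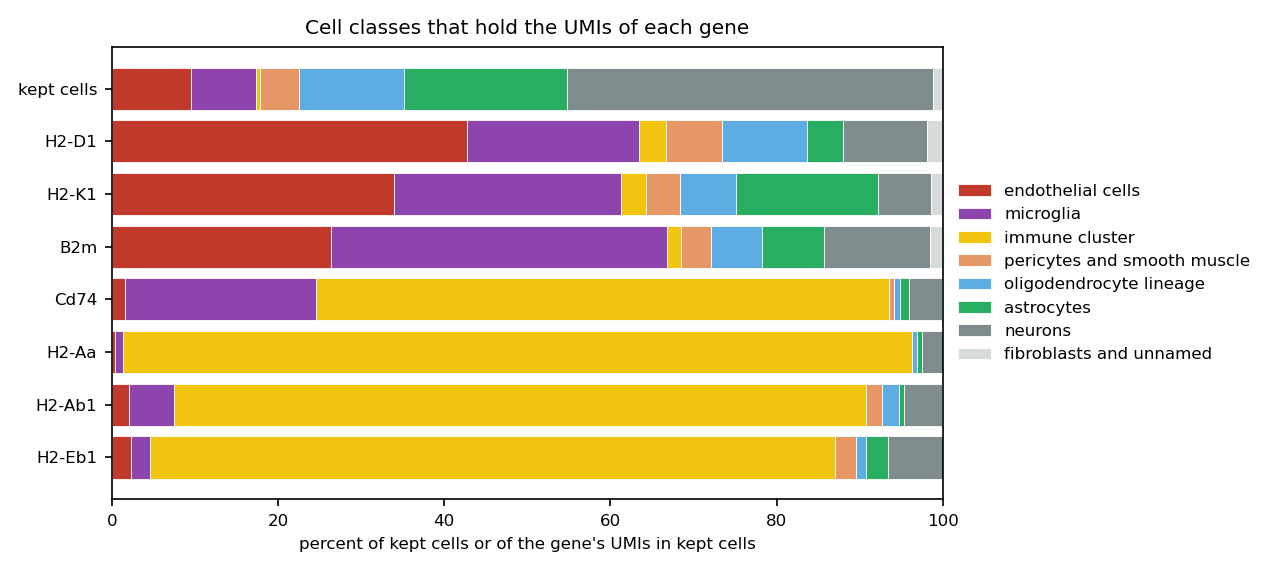
Share of kept cells and of the UMIs of each member (percent, horizontal axis) held by each group of cell classes; each bar sums to 100%. The immune cluster, 0.420% of cells, holds 94.9% of H2-Aa and 69.0% of Cd74 UMIs, while endothelial cells and microglia together hold most class I UMIs.

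Inside the immune cluster 24 cells, 0.0520% of all kept cells, had UMIs of all 4 class II genes, and they held 73.1% of the 4998 class II UMIs of the tissue. A cell of this kind had between 7 and 436 class II UMIs (median 151.5), which made up a median of 5.30% and at most 14.6% of its RNA. They came from 8 of the 10 libraries. Chosen after their values were seen, 2 gene pairs split them: 17 of the 24 had a UMI of Cd209a or Mgl2, lectins of dendritic cells and macrophages, 6 had one of Cd79a or Igkc, B cell genes, 0 had both and 1 had neither. Neither lectin was particular to them: in the 3 sub-clusters of perivascular macrophages Cd209a was present in 8 cells each, and Mgl2 in 7, 4 and 2 cells. The first kind held 3400 class II UMIs, 6.76% of its RNA, and the second 176, or 2.10%. Of the genes of perivascular macrophages Mrc1 was present in 9 of the 24, Cd163 in 2, and Pf4 and Ms4a7 in 1 each. By sub-cluster, 14 of the 24 lay in one of 26 cells led by Cd74, H2-Ab1, Lyz2, Lgals3 and Mgl2. Another 6 lay in a sub-cluster of 40 cells, of which 12 had Nkg7, a gene of natural killer and T cells, and 9 had Cd79a, and 3 lay in a mixed one of 26 cells.

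Cells with at least 3 of the 4 class II genes numbered 26 in the immune cluster, between 0 and 8 in a library. Rank 1 libraries held 11 of 17447 cells and rank 4 libraries 15 of 28747, or 0.0630% and 0.0522%, too few for a comparison of levels. Outside the cluster 5 such cells were found, 2 among endothelial cells, 2 among excitatory neurons and 1 among pericytes.

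Perivascular macrophages, named from Mrc1, Pf4 and other markers, were 102 cells, of which 71.6% had a UMI of H2-D1, 68.6% of B2m and 45.1% of H2-K1. Only rank 1 replicate 2 and rank 4 replicate 3, both libraries with high levels in other classes, held at least 20 of them. There H2-D1 stood at 1361 and 1446 CPM, against 1311 and 1362 CPM in endothelial cells of the same libraries. Cd74 stood at 2195 and 337 CPM, against 425 and 449 CPM in microglia of the same libraries, so that the order turned between the libraries. Pooled over libraries, which enter in other proportions than in the larger classes, H2-D1 stood at 1132 CPM, B2m at 1234 CPM, H2-K1 at 444 CPM and Cd74 at 669 CPM. In the sub-cluster of 26 cells led by Cd74, pooled H2-D1 stood at 1886 CPM and H2-K1 at 1223 CPM, and in the one of 40 cells at 1413 and 1515 CPM. With so few cells, these values carry no test. Among the macrophages Cd74 was present in 23 of the 102 cells (22.5%, exact binomial 95% interval 14.9 to 31.9%), H2-Aa and H2-Ab1 in 1 cell each and H2-Eb1 in 4. Of the 104 Cd74 UMIs of the class, 79 came from rank 1 replicate 2, which held 23 of its cells and 18 UMIs of the chains. The median depth was 1421 UMIs, and the share of cells with Cd74 in astrocytes, at 1507 UMIs, was 0.342%.

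In microglia Cd74 was found far more often than the chains it escorts. The gene lies outside the complex, at chr18:60803848-60812652 on the plus strand (GRCm38), and Mir5107 lies inside it. Of 3609 microglia 394 had a UMI of Cd74 (10.9%, exact binomial 95% interval 9.92 to 12%), against 0.441% of excitatory neurons, whose median depth was higher. In 242 of these 394 cells it was 1 UMI, and 20 cells had 5 or more, up to 10. A chain gene was found in 60 microglia, and 377 of the 394 had none. Such intervals cover counting error only.

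By library, Cd74 in microglia ran from 12.2 to 557 CPM. It exceeded the level in endothelial cells, 6.73 CPM ± 9.01 (n = 10), in 10 of 10 libraries by 2.93 ± 1.72 on the log2 scale (exact permutation test, adjusted p = 0.0205). In rank 1, replicates 1 to 5, it stood at 18.0, 425, 557, 48.0 and 48.9 CPM, and in rank 4 at 12.2, 433, 449, 43.0 and 52.1 CPM. Replicates 2 and 3 of both ranks were high and the other 6 libraries low, with no overlap, and the ranks overlapped throughout. The share of microglia with any class II UMI was 4.90, 30.8, 44.2, 4.43 and 3.82% in rank 1 and 4.70, 30.1, 37.3, 4.27 and 6.18% in rank 4. It differed between ranks by 1.11 percentage points (17.6% ± 18.7 against 16.5% ± 15.9, SD, n = 5 each; two-sided exact permutation test, p = 0.905). With pairs of equal replicate number kept together, rank 1 was higher in 4 of 5 (exact sign-flip permutation test, p = 0.562; the smallest p that 5 pairs allow is 0.0625). The difference turned to -5.54 points without rank 1 replicate 3 and to 6.30 points without rank 4 replicate 3, and it was -0.617 points after thinning.

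The same libraries stood high for other members and for genes outside them. B2m in microglia was at 1636, 3036, 3689, 697 and 387 CPM in rank 1 and at 1652, 2404, 2681, 344 and 557 CPM in rank 4. H2-K1 was at 298, 723, 762, 438 and 251 CPM in rank 1 and at 187, 956, 714, 194 and 341 CPM in rank 4. H2-D1 was at 456, 1125, 1193, 402 and 241 CPM in rank 1 and at 274, 988, 806, 143 and 332 CPM in rank 4. Replicates 2 and 3 were the highest of each rank for all 3 genes, and B2m was also higher in replicate 1 than in replicates 4 and 5.

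Several values moved with these libraries. Ccl3 in microglia was at 61.8, 6595, 8284, 420 and 302 CPM in rank 1 and at 72.0, 6625, 6169, 93.2 and 786 CPM in rank 4. The interferon-induced gene Isg15 was at 12.4, 115, 95.8, 18.0 and 2.04 CPM in rank 1 and at 28.8, 208, 131, 0 and 13.7 CPM in rank 4. Both genes were high in the libraries that were high for Cd74. The Ccl3 and Ccl4 sub-cluster was 35.9 and 39.9% of microglia in replicates 2 and 3 of rank 1 and 30.9 and 36.8% in those of rank 4, and 4.36 to 24.4% in the other libraries. In microglia outside it Cd74 still stood at 221 and 546 CPM in replicates 2 and 3 of rank 1 and at 319 and 259 CPM in those of rank 4, against 10.9 to 38.2 CPM elsewhere. Of the 7 markers of perivascular macrophages 6 were above 0 in microglia, with a summed level of 0 to 21.5 CPM. The 7 dendritic cell markers summed to 0 to 52.3 CPM, highest at 45.9 and 52.3 CPM in replicates 2 and 3 of rank 1, with 6 above 0 and Cd209a at 0 in 9 of 10 libraries. The part of these values in the difference between replicate numbers was not tested.

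Endothelial cells showed the same libraries high, as given for H2-D1 above. Their B2m was at 852, 1466, 1854, 367 and 328 CPM in rank 1 and at 752, 1131, 1533, 259 and 242 CPM in rank 4. The arterial share of endothelial cells was also highest in replicates 2 and 3 (18.4 and 21.9% in rank 1, 16.5 and 18.0% in rank 4) and was 10.1 to 14.3% in the others. In the other, non-arterial cells H2-D1 still stood at 1077 and 1568 CPM in replicates 2 and 3 of rank 1 and at 1116 and 1177 CPM in those of rank 4, against 345 to 467 CPM elsewhere. Isg15 in endothelial cells did not follow: it lay between 138 and 195 CPM in the 10 libraries.

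**Figure D4:**
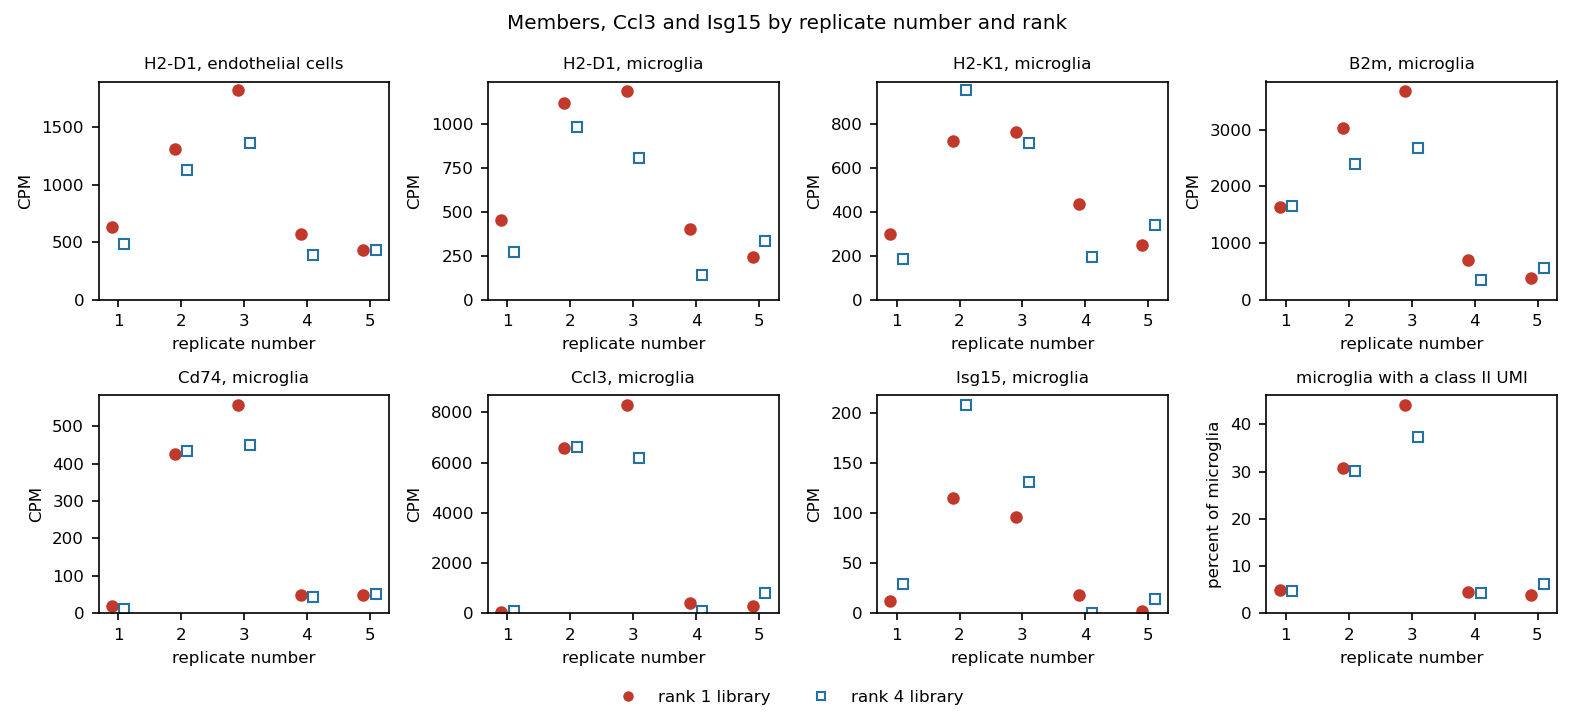
Level of members in endothelial cells and microglia, of Ccl3 and Isg15 in microglia (CPM), and percent of microglia with a class II UMI, by replicate number; filled circles are rank 1 and open squares rank 4 libraries. Within each rank, replicates 2 and 3 stand highest in every panel.

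Between rank 1 and rank 4 none of the members passed the test in any class. Sums of UMIs per library and class were compared with edgeR's quasi-likelihood test, with the gene-list version as covariate and Benjamini-Hochberg adjustment over all genes of the class. Across 9 classes 24 pairs of member and class had enough counts, and H2-Aa, H2-Ab1 and H2-Eb1 passed the filter on low counts in 0 classes. Of the 24, 0 passed an adjusted p of 0.05 and 0 had an unadjusted p under 0.05, against 0% and 2.32% of all 61968 tests in these classes. With DESeq2 both counts were 0 as well, and without rank 1 replicate 1 the unadjusted count was 3. The estimate was above 0, meaning higher in rank 1, in 20 of 24 against 48.6% of all tests, but the members of a class share its libraries and those estimates are not independent.

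In endothelial cells the 3 class I genes had a median log2 change of 0.34 and in microglia the 4 genes tested one of 0.23, against 0.00 and -0.01 over all genes. In endothelial cells H2-D1 averaged 954 CPM ± 596 in rank 1 and 761 CPM ± 452 in rank 4, a log2 change of 0.30 ± 0.34 (SE, n = 5 each; edgeR, adjusted p = 1.00). The change was 0.34 ± 0.30 for H2-K1 and 0.35 ± 0.27 for B2m (edgeR, adjusted p = 1.00 for both). When 1 library was left out, the change ran from 0.09 (without rank 1 replicate 3) to 0.50 (without rank 1 replicate 1) for H2-D1 and from 0.13 to 0.53 for H2-K1 without the same libraries. For B2m it ran from 0.21 (without rank 1 replicate 3) to 0.54 (without rank 4 replicate 3). With the replicate number as a block, which takes out what replicates of equal number share, the changes stayed near these sizes with smaller errors. The changes were then 0.29 ± 0.11 for H2-D1, 0.30 ± 0.12 for H2-K1 and 0.33 ± 0.11 for B2m, with unadjusted p = 0.0132, 0.0149 and 0.00545 and adjusted p = 0.252, 0.265 and 0.166 (edgeR). Of all 8222 genes tested in endothelial cells 11.6% had an unadjusted p under 0.05 with the block, and 4.46% had one and were higher in rank 1. B2m and H2-K1 were higher in rank 1 in 5 of 5 pairs and H2-D1 in 4 of 5. Under the block 5 of the 24 pairs of member and class had an unadjusted p under 0.05, against 10.2% of all tests. All 5 were higher in rank 1, so 5 of 24 had such a p and that direction, against 4.12% of all tests. Of the 24, 0 passed the adjusted threshold, against 0.244% of all tests. The other 2 were H2-D1 in pericytes (0.39 ± 0.15, edgeR, adjusted p = 0.378) and in oligodendrocyte precursors (0.29 ± 0.14, edgeR, adjusted p = 0.541).

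In microglia the spread between libraries was wider. The log2 change was 0.44 ± 0.45 for H2-D1, 0.12 ± 0.47 for H2-K1, 0.32 ± 0.35 for B2m and 0.14 ± 0.89 for Cd74 (edgeR, adjusted p = 1.00 each). Cd74 turned to -0.31 without rank 1 replicate 3 and to -0.25 without rank 4 replicate 1. Whether the rank difference in endothelial cells was unlike that in microglia was tested by permuting libraries. It differed by -0.18 for H2-D1, 0.09 for H2-K1 and 0.09 for B2m (two-sided exact permutation test, adjusted p = 0.833 for each of the 3). In excitatory neurons, where levels were lowest, the changes were 0.04 ± 0.33 for H2-D1 and -0.05 ± 0.32 for B2m.

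**Figure D5:**
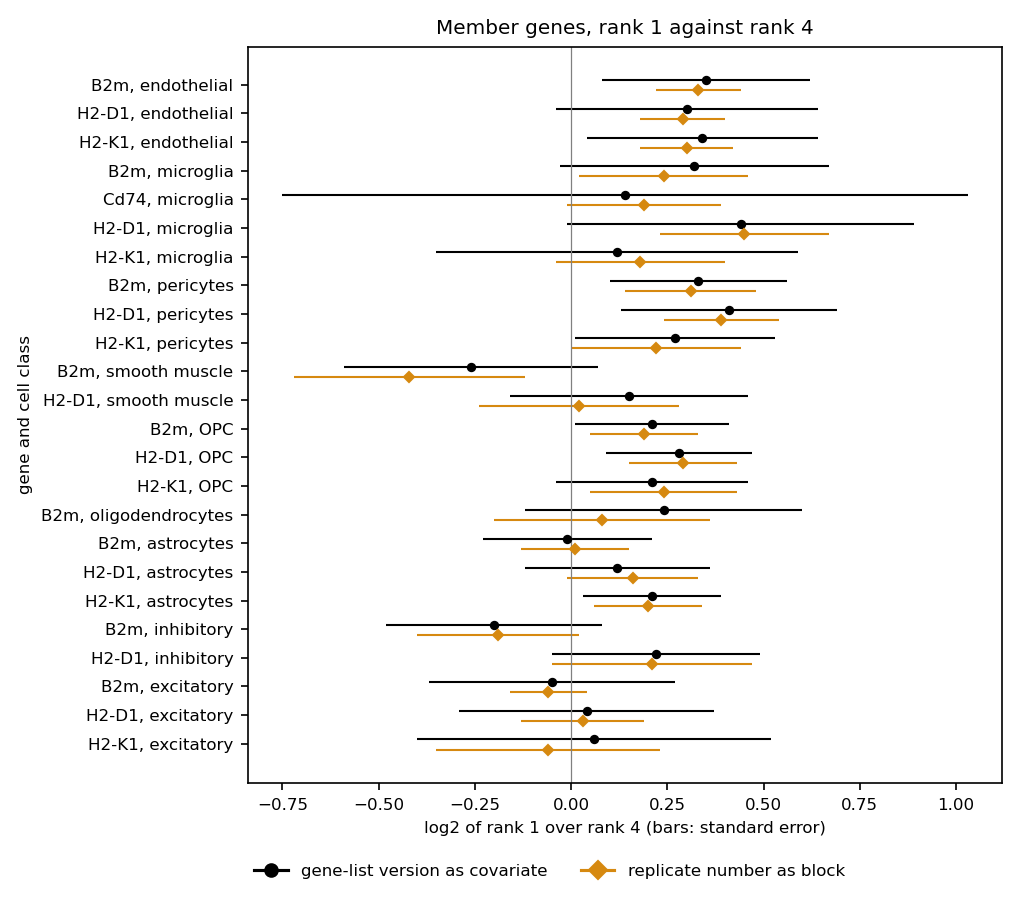
Log2 change of rank 1 over rank 4 for each member and cell class with enough counts (horizontal axis; bars are standard errors); black circles are the fit with the gene-list version as covariate, orange diamonds the fit with the replicate number as block. Most points lie above 0 and none passed an adjusted p of 0.05 in either fit.

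The rest of the pathway was read from a list of genes in 8 groups, and none of its genes passed the test of rank. Of 216 tests in 9 classes 0 passed the adjusted threshold and 9 had an unadjusted p under 0.05 (edgeR), or 0 and 43 of 218 with the replicate block. Of all genes 2.32% and 10.2% had such a p in the respective fits. The count of 9 ran from 1 without rank 1 replicate 4 to 21 without rank 1 replicate 1. Of all tests 48.6% had a log2 change above 0, and genes of a class share its libraries, so counts of direction are not independent. Peptide loading genes were above 0 in 37 of 48 tests with a median of 0.14. Interferon response genes were so in 43 of 62 and class II processing genes in 26 of 34, each with a median of 0.16. Immunoproteasome and activator genes were above 0 in 8 of 29 with a median of -0.23. In microglia all 5 of them, which are Psmb8, Psmb9, Psmb10, Psme1 and Psme2, were below 0, with a median of -0.61, while all 6 peptide loading genes tested there were above 0, with a median of 0.46. The 4 class II processing genes were above 0 in microglia too, with a median of 0.58. The median over all genes tested in microglia was -0.01. The log2 change was -0.60 ± 0.25 for Psme1, a subunit of the proteasome activator, and 0.61 ± 0.26 for Calr, the chaperone calreticulin (edgeR, adjusted p = 1.00 for both). It was larger for H2-M3 (1.17 ± 0.43) and Ctsl (0.75 ± 0.26), which did not pass the adjusted threshold either.

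By level, the leading class differed between genes of the list, again among classes outside the immune cluster. Of the class II genes H2-DMa, which exchanges peptides on class II molecules, stood highest in microglia at 199 CPM, as did H2-DMb1 at 124 CPM and H2-Oa at 40.3 CPM. The endosomal proteases Ctss, Lgmn and Ctsb were highest in microglia too, at 6165, 2875 and 2779 CPM, though Ctsb was at 8017 CPM in the pooled perivascular macrophages, whose cells come from the libraries in other proportions. Cd86, a co-stimulatory ligand, stood at 240 CPM in microglia and at 270 CPM in those macrophages, Icosl at 67.8 CPM in microglia, and Cd40 at 28.0 CPM in endothelial cells. Microglia also led for Hfe (80.4 CPM), Calr (595 CPM), Pdia3 (550 CPM), Psmb8 (147 CPM), Ifngr1 (584 CPM) and Irf8 (314 CPM). Endothelial cells led for H2-T23 (74.5 CPM) and H2-T22 (58.0 CPM), nonclassical class I chains, for Psme1 (157 CPM) and Psmb10 (132 CPM), and for the interferon-induced Ifitm3 (1075 CPM). Other genes were led by other classes: Canx by inhibitory neurons (448 CPM), Nfyb by excitatory neurons (58.4 CPM), Rfxap by oligodendrocyte precursors (52.5 CPM) and Rfxank by astrocytes (27.8 CPM). The regulators Nlrc5 and Ciita were named after their values were seen. Nlrc5, which drives class I genes, stood at 1.64 CPM in endothelial cells and microglia and at 19.3 CPM, the level of 3 counts, in the pooled macrophages. Ciita, which drives class II genes, stood at 0.717 CPM in microglia. Ctss in microglia followed the replicate numbers like Cd74, at 5174, 10986, 11825, 3730 and 2812 CPM in rank 1 and at 3170, 9895, 7965, 2610 and 3485 CPM in rank 4. H2-Ea, H2-Ea-ps and Ifi30, also on the list, were not analysed here.

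Over the means of 10 classes, the genes whose log2 level was most like that of a member were found among 11329 genes by Pearson's r, as a description. They were Zbtb2 (0.963), Il6st (0.961) and Chd1 (0.955) for H2-D1, Rps23 (0.946), Mob1a (0.944) and Erap1 (0.941) for H2-K1, and Mob1a (0.981), Ppp1r10 (0.978) and Psmb8 (0.969) for B2m. For Cd74 they were Neurl3 (0.998), Lag3 (0.998) and Arhgap45 (0.997), all highest in microglia. Of these, Erap1, which trims class I peptides, and the immunoproteasome subunit Psmb8 were on the pathway list. The points share libraries and depth, and the class II chains reached 20 CPM in no class used here.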

How the data were processed

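Droplet RNA sequencing of medial prefrontal cortex was read from the deposited filtered matrices of 10 libraries, which hold raw UMI counts per gene and cell. Reads were mapped and counted by the authors with Cell Ranger 4.0.0 on mm10, per the submitters' processing notes. Software version 3.1.0 and 31053 genes stand in replicates 1 to 3, per the file headers, against 4.0.0 and 32285 genes in replicates 4 and 5. The 30406 shared genes hold 99.4 to 99.9% of the UMIs and were used.

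Barcodes called doublets by Scrublet (scanpy 1.11.5, Python 3.11.15) were removed, 3205 in all. In replicate 1 of both ranks its threshold was replaced by the median of the others, 0.245. Kept cells had at least 500 genes and at most 15% mitochondrial UMIs. They were clustered at resolution 1 (30 components, 2000 variable genes, Leiden, igraph 0.11.9), without the members and the pathway list, and named by marker lists. Counts were summed per library and class, with at least 20 cells, and given as CPM.

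Rank was tested on the summed counts with edgeR 4.0.16 (R 4.3.3) per class, with the gene-list version as covariate and at least 3 libraries of each rank. DESeq2 1.42.0, other filters, other clusterings, the replicate block and leaving out each library were alternatives. Levels were tested with exact permutation tests on log2(CPM + 10) in scipy 1.17.1 and numpy 2.4.6. Scripts were tested on simulated data. In counts drawn from the microglial means, the rank fit called 40% of 100 genes changed 2-fold and 100% of 97 changed 4-fold. The spread between libraries was set in that simulation and not taken from these data. Changes of 2-fold or less can thus go uncalled, and a member that did not pass is not shown to be unchanged.

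The labels describe the libraries of a rank as independent pools and number them 1 to 5. Libraries of equal number and unlike rank deviated together in all 8 classes checked (correlations 0.437 to 0.869 in 40 pairs). The block is therefore given beside results it moves. In 27 of the 40 the own number correlated best, and in the rest another number did. Replicate 2 in microglia, for example, had 0.651 with its own number and 0.71 with another. The labels do not say what a number stands for, so pairing by number is an assumption of the block.

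Pathway genes were named by level, the 3 highest of each group of the list, and likest genes by the 3 highest correlations; other genes named with values were chosen after these were seen. The members and lists were chosen with earlier results of these data known.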

Additional observations from a re-analysis of the deposited data

Results flagged for a closer look

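Among 58 groups of 4 or 5 libraries, 6 held a library far from the others by Dixon's criterion, where chance gives about 1 in 20 groups, or 2.9. Of these 6, 3 were in rank 1 replicate 1: H2-D1 in excitatory neurons at 38.4 CPM (median of the rank 16.5), H2-D1 in oligodendrocytes at 51.3 CPM (median 24.8) and B2m in excitatory neurons at 121 CPM (median 42.9). Rank 1 replicate 3 held 2, which were H2-K1 in smooth muscle cells at 115 CPM (median 84.8) and Cd74 in endothelial cells at 16.4 CPM (median 0.776). In rank 4 replicate 4, H2-K1 in oligodendrocyte precursors stood at 89.8 CPM (median 51.3).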

How the results depend on the processing

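Of 875 alternative values for 56 results, 836 counted as the same, 19 changed sign and 20 moved otherwise. For the rank change of a gene, the same meant an equal sign and side of the adjusted threshold, whatever the size. None of the 435 alternative values for the 29 levels moved by more than the spread between libraries. With the replicate number as a block, 5 of the 24 member tests had an unadjusted p under 0.05, where the fit without it had 0, and no adjusted call changed. The count of neighbouring classes told apart, 11, fell to 5 with the stricter cell filter and to 6 to 8 when 1 library was left out. Leaving out rank 1 replicate 1, 2, 3 or 5 or rank 4 replicate 1, 2, 3 or 5 took it to 7 or fewer, and a test on fewer libraries has a larger smallest p. The rank difference in the share of microglia with class II UMIs was -0.617 points after thinning, -1.10 in replicates 4 and 5, and -5.54 to 6.30 when 1 library was left out. When 1 library was left out, the endothelial minus microglial rank effect ran from -0.16 to 0.36 for H2-K1 and from -0.05 to 0.22 for B2m. In microglia the rank change of H2-K1 was -0.03 in replicates 1 to 3 and -0.13 to 0.39 when 1 library was left out. That of Cd74 was -0.09 in replicates 4 and 5 and -0.31 to 0.49 when 1 library was left out. In each of these the cause was not tested. The stricter filter left too few libraries to compare the Ccl3 and Ccl4 microglia with the others, so that alternative was not run. The class II chains passed the filter for rank tests in 0 classes, and the part of depth in this was not tested.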
